A study of Mus musculus with 9 samples.

Results

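The genes described here are 43 antioxidant, metal and glutathione defense genes, taken by symbol from a list drawn up with earlier results of these data known: peroxiredoxins, glutathione peroxidases, superoxide dismutases and catalase, the thioredoxin and glutaredoxin systems, glutathione synthesis, quinone and heme enzymes, methionine sulfoxide reductases, metal storage proteins and 3 regulators. All 43 were among the 13081 genes of the kidney table, and all 43 were among the 12667 genes that passed the filter on low values (at least 10 normalized counts in at least 4 libraries). Whole kidneys of untreated wild-type C57BL/6 mice were profiled by QuantSeq, a method that sequences 1 fragment near the 3′ end of each polyadenylated RNA, in 4 young mice (3 months) and 5 old mice (16 months). The sex of the animals was not given in the labels used here. The young and the old libraries carried 2 different title prefixes, so age and any way in which the sets so marked were handled differently cannot be told apart. Libraries held 4486406 to 6355095 reads in the table. A normalized count is a read count divided by a size factor of its library, so that 1 read was worth 0.819 to 1.18 normalized counts.

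Cells make superoxide and hydrogen peroxide as they respire. Superoxide dismutases turn superoxide into hydrogen peroxide, which catalase, the peroxiredoxins and the glutathione peroxidases then reduce; the last of these draw electrons from glutathione, and most peroxiredoxins draw them from thioredoxin. The transcription factor NRF2 (Nfe2l2) switches on many of these genes by binding the antioxidant response element, while KEAP1 holds it in check by sending it for degradation. Ferritin and the metallothioneins bind iron, zinc and copper, which limits the part of free iron and copper in radical chemistry. The kidney, whose proximal tubule is rich in mitochondria, is the main source of the plasma glutathione peroxidase GPX3.

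Most of the 43 genes differed between old and young kidneys, and most of those were lower in old. Of the 43 genes, 30 were called (limma on log2(normalized count + 1), Benjamini-Hochberg adjusted p under 0.05 over all genes tested), 24 lower in old and 6 higher. The whole table changed widely too: 59.7% of all genes tested were called, 29.2% higher and 30.5% lower, beside 69.8% of the 43 genes called, 14.0% higher and 55.8% lower. The median log2 difference (old minus young) over the 43 genes was -0.37, and over all genes tested it was -0.0027. A change of at least 1.5-fold was called downward for 17 genes and upward for 4, where 23.6% of all genes tested were called and at least 1.5-fold lower and 21.6% at least 1.5-fold higher. The young and old libraries did not overlap for 27 genes, 22 of them lower and 5 higher in old, and 49% of all genes tested did not overlap. The 6 genes that rose were Txnrd1, Hmox1, Gclm, Nfe2l2, Keap1 and Park7. The largest falls were those of Gpx4, Ftl1, Prdx3, Txn1 and Txnip.

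**Figure D1:**
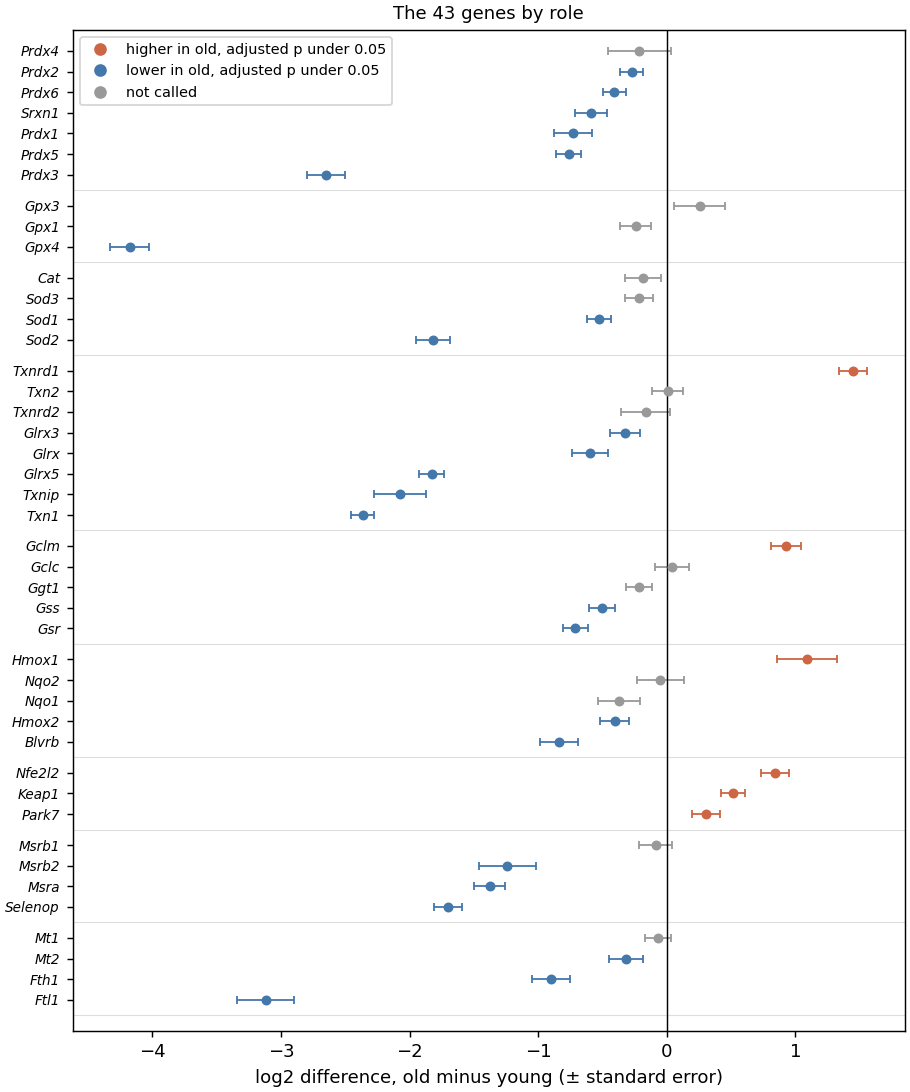
Log2 difference, old minus young, with its standard error (x axis) for each of the 43 genes, ordered by role from the peroxiredoxins at the top to the metal storage genes at the bottom. Blue and orange points passed the test, lower or higher in old, and gray points did not; the 3 regulators lie to the right of 0, and Gpx4 lies farthest to the left at -4.18.

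By summed reads, the 43 genes held a similar share of the table in both groups, since 1 gene outweighs the rest; with 1 fragment per RNA, these counts do not scale with transcript length. Their summed share of reads was 4.60 to 4.89% in young and 3.55 to 5.06% in old libraries, and the ranges overlapped. Gpx3 alone reached 107416 to 205904 normalized counts in old kidneys, and Fth1 and Gpx1 were the next in level. The summed level fell without overlap in the peroxiredoxins (18776 to 19794 normalized counts in young, 10676 to 14194 in old), in the thioredoxin and glutaredoxin genes (7037 to 7398 against 3114 to 3804) and in metal storage (30907 to 36087 against 11649 to 21373). It also fell without overlap in methionine sulfoxide reductases with selenium transport (6877 to 8425 against 2914 to 4098). The same held for superoxide dismutases with catalase (14285 to 15296 against 9066 to 11328) and quinone and heme enzymes (578 to 681 against 510 to 572). The summed level rose without overlap in the 3 regulators, from 1912 to 2111 up to 2442 to 3071. Sums of the glutathione peroxidases and of glutathione synthesis and turnover overlapped between the groups. In bulk tissue, fewer cells of a type and less RNA per cell cannot be told apart.

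The antioxidant response element was looked for in front of the genes, because NRF2 acts through it and because its own gene and some of its known targets rose. Its core, TGACNNNGC, was searched on both strands in the 250 bases upstream of each RefSeq transcription start (GRCm38.p6; the reads were aligned to GRCm39, so the genes were matched by symbol). The core begins with TGAC, as the AP-1 site TGACTCA does, so both motifs can lie on the same bases. Promoters were on hand for 37 of the 43 genes; Prdx6, Sod3, Gclc, Gsr, Hmox1 and Msra had none. The core lay upstream of 7 of the 37 genes (18.9%), beside 11.5% of all 27025 genes with a promoter, and in 8 of their 53 windows (15.1%), beside 10.2% of the 32851 windows of all genes. Of the 5 risen genes with a promoter, 3 held it (Txnrd1, Gclm and Nfe2l2), and so did 3 of the 21 fallen ones (Prdx1, Sod1 and Mt2) and 1 of the 11 others (Ggt1). The stretch around the match is shown for the 3 that rose and for Prdx1, which fell, 5′ to 3′ on the strand of the gene and with the core in capitals; where the core lies on the other strand it reads GCNNNGTCA.
Txnrd1, chr10:82859064-82859172, plus strand, core 92 to 84 bases before the start: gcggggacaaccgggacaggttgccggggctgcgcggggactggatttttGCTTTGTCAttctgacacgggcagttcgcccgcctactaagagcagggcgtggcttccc
Gclm, chr3:122245373-122245481, plus strand, core 134 to 126 bases before the start: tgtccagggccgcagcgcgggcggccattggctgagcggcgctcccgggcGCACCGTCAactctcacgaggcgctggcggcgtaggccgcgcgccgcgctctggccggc
Nfe2l2, chr2:75704845-75704913, minus strand, core 240 to 232 bases before the start: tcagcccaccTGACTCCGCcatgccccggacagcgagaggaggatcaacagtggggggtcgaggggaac
Prdx1, chr4:116685416-116685524, plus strand, core 133 to 125 bases before the start: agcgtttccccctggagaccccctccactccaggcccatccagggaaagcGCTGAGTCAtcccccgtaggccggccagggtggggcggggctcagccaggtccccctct
A match describes these letters only. The Txnrd1 match belongs to 1 of 3 annotated start windows of that gene.

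Among the regulators, all 3 genes were higher in old kidneys, where 29.2% of all genes tested were. Nfe2l2, the gene of NRF2, had 366, 370.2, 376 and 304 normalized counts in the young libraries and 719, 523, 654, 684 and 600.4 in the old ones. Every old library lay above every young one, and the mean rose 1.80-fold (log2 difference 0.84 ± 0.11 SE, adjusted p = 2.63e-06, limma). Keap1, the gene of its repressor, had 316, 368, 355 and 342 in young and 476, 502, 533, 464 and 495 in old kidneys. These groups did not overlap either, and Keap1 rose 1.43-fold (log2 difference 0.52 ± 0.09 SE, adjusted p = 0.000121, limma). Park7 encodes DJ-1, a cysteine-bearing protein that guards against oxidative stress, and had 1429, 1271, 1181 and 1334 in young and 1572, 1417, 1376, 1923 and 1815 in old kidneys. Its groups overlapped, since old replicates 2 and 3 fell below young replicate 1, and the rise was 1.24-fold (log2 difference 0.30 ± 0.11 SE, adjusted p = 0.0209, limma). The Park7 call was lost without young replicate 2 (adjusted p = 0.0527), young replicate 3 (0.0802) or old replicate 4 (0.0624).

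Of 11 further partners and regulators of NRF2, all tested, 5 were higher (45.5%), 3 lower (27.3%) and 3 not called, with a median log2 difference of 0.0035. Over all genes tested 29.2% were higher and 30.5% lower, so the share that fell was near that of the table. Bach1, a repressor that competes with NRF2 for the same element, rose from 45.7 ± 7.97 (SD, n = 4) to 166 ± 16.2 (SD, n = 5) normalized counts (log2 difference 1.85 ± 0.15 SE, adjusted p = 7.19e-09, limma). Mafg, a small MAF protein that pairs with both NRF2 and BACH1 on DNA, fell from 805 ± 106 to 347 ± 58.2 (log2 difference -1.22 ± 0.13 SE, adjusted p = 1.49e-07, limma). The activator, its repressor and its competitor on DNA were thus all higher in old kidneys. Of 12 of the 43 genes that are textbook NRF2 targets, a selection made after the values were seen, 3 were higher (Txnrd1, Gclm, Hmox1), 7 lower (Prdx1, Srxn1, Gsr, Txn1, Fth1, Ftl1, Blvrb) and 2 not called (Nqo1, Gclc), beside 29.2% higher and 30.5% lower of all genes tested.

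The thioredoxin system moved in opposite directions within 1 pathway. Txn1, cytosolic thioredoxin, had 3690.2, 3849.7, 3979 and 3548 normalized counts in the young libraries and 619, 789.8, 765, 764 and 722 in the old ones. Every young library lay far above every old one, and the mean was 5.15-fold lower in old (log2 difference -2.37 ± 0.09 SE, adjusted p = 5.17e-13, limma). Txnrd1, the selenium-containing reductase that recharges thioredoxin, had 331, 359.5, 340.2 and 294 in young and 860.5, 779, 933, 1112 and 862 in old kidneys. The groups did not overlap and Txnrd1 was 2.75-fold higher in old (log2 difference 1.45 ± 0.11 SE, adjusted p = 2.38e-09, limma), the largest rise among the 43 genes. The ratio of Txnrd1 to Txn1 within a library does not depend on its size factor, and its log2 value went from -3.51 ± 0.08 (SD, n = 4) to 0.31 ± 0.22 (SD, n = 5). Txnip, the thioredoxin inhibitor, fell with Txn1 by 2.08 on the log2 scale (SE 0.20, adjusted p = 8.4e-08, limma), from 816 ± 132 to 203 ± 78.1, so that the ratio of Txnip to Txn1 overlapped between the groups.

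The mitochondrial branch of the same system did not follow. Txn2, mitochondrial thioredoxin, had 794 ± 43.9 normalized counts in young and 807 ± 145 in old (log2 difference 0.01 ± 0.12 SE, adjusted p = 0.965, limma), and Txnrd2, its reductase, had 79.9 ± 7.15 and 73.3 ± 19.0; neither was called. The log2 ratio of Txn1 to Txn2 was 2.10 to 2.37 in the young libraries and -0.42 to 0.31 in the old ones. The 3 glutaredoxin genes among the 43 were lower, where 30.5% of all genes tested were, whereas Glrx2, from the related genes, rose. Glrx5, which hands on iron-sulfur clusters in mitochondria, had 944 to 1045 in young and 252 to 315 in old kidneys (log2 difference -1.83 ± 0.10 SE, adjusted p = 2.43e-11, limma). Glrx, the cytosolic glutaredoxin, fell by 0.60 on the log2 scale, and Glrx3, which handles iron-sulfur clusters in the cytosol, fell by 0.33 with overlapping groups; the Glrx3 call was lost without young replicate 1, 2 or 3 (adjusted p = 0.0738, 0.0581 and 0.0540), with the trend on transcript length removed (0.0534) and without mitochondrial genes (0.173).

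Of the 7 peroxiredoxin genes, with sulfiredoxin counted among them, 6 were lower in old kidneys, where 30.5% of all genes tested were. Prdx3, the peroxiredoxin of the mitochondrial matrix, had 335, 349.8, 306 and 371 normalized counts in the young libraries and 55.4, 71.1, 52.7, 44.8 and 45.6 in the old ones. No old library came near the young range, and the mean was 6.31-fold lower (log2 difference -2.65 ± 0.15 SE, adjusted p = 3.73e-11, limma). The others moved far less. Prdx5, found in mitochondria, peroxisomes and the cytosol, went from 10136 ± 128 to 5997 ± 525 (log2 difference -0.76 ± 0.10 SE), and Prdx1, the abundant cytosolic form, from 6769.5 ± 463 to 4187 ± 1101 (log2 difference -0.73 ± 0.15 SE). Srxn1, which restores over-oxidized peroxiredoxins, fell by 0.59, Prdx6, the form with a single active cysteine, by 0.41, and Prdx2, abundant in red cells, by 0.27 on the log2 scale. Prdx4, the form of the endoplasmic reticulum, was not called (log2 difference -0.21 ± 0.25 SE) and ranged in old kidneys from 38.2 to 114, around a young range of 74.5 to 88.4. The log2 ratio of Prdx3 to Prdx5 fell from -4.90 ± 0.13 to -6.79 ± 0.22 within libraries, so the loss of Prdx3 reads was larger than that of its relative in the same kidneys. The Prdx2 call was lost without young replicate 1 or 2 (adjusted p = 0.0584 in both) and without mitochondrial genes (log2 difference -0.13, adjusted p = 0.232). With the trend on transcript length removed, its difference was 0.020 (adjusted p = 0.862).

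**Figure D2:**
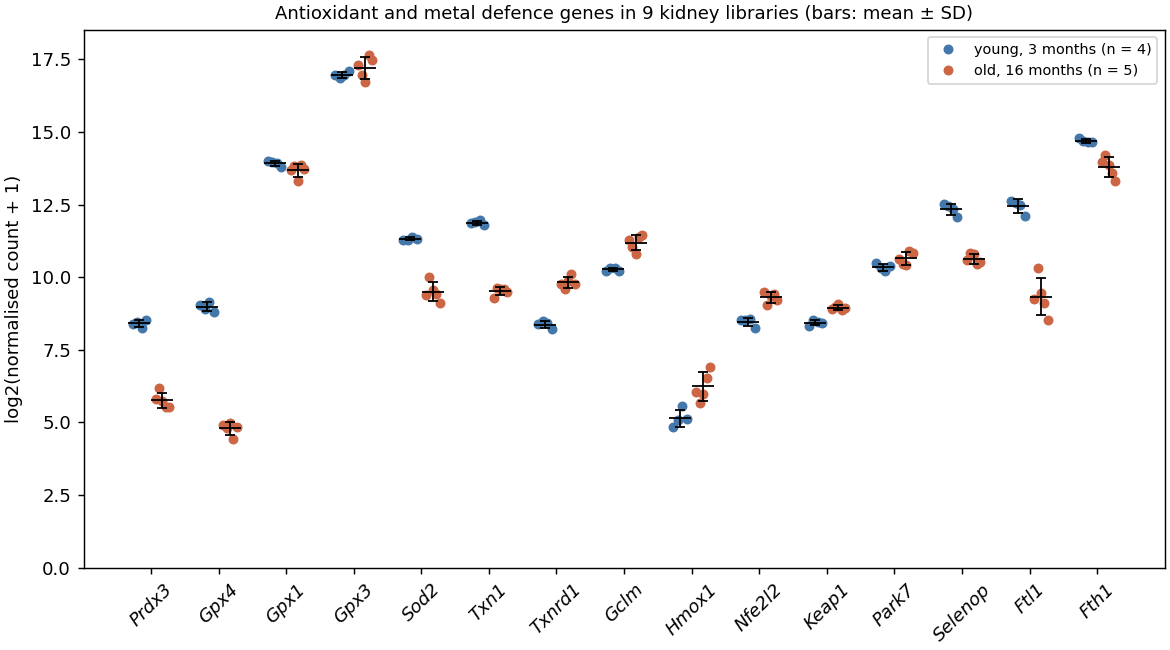
Log2(normalized count + 1) of 15 genes (y axis) in each of the 4 young (blue) and 5 old (orange) libraries, with the mean and SD as bars. The young and old points are apart for Prdx3, Gpx4, Sod2, Txn1, Txnrd1, Gclm, Hmox1, Nfe2l2, Keap1, Selenop, Ftl1 and Fth1, and they overlap for Gpx1, Gpx3 and Park7.

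The 3 glutathione peroxidases differed most among themselves. Gpx4, the selenoenzyme that reduces lipid hydroperoxides in membranes and so holds back ferroptosis, had 532, 483, 565 and 441 normalized counts in the young libraries and 29.5, 27.3, 30.4, 20.5 and 27.6 in the old ones. This was the largest difference among the 43 genes, 18.7-fold lower in old (log2 difference -4.18 ± 0.15 SE, adjusted p = 1.23e-13, limma) and no old library went below 20.5, where 3 reads would give 2.80 to 3.54. Gpx1, the abundant cytosolic form, had 16433, 15933, 15436 and 14153 in young and 13166, 14498, 10107, 14736 and 13529.9 in old kidneys. Its groups overlapped and it was not called (log2 difference -0.24 ± 0.12 SE, adjusted p = 0.0922, limma), but it was called lower when scaled to the table total (-0.29, adjusted p = 0.0185). With the trend on transcript length removed, the Gpx1 difference turned to 0.14 (adjusted p = 0.280, limma). Gpx3, the secreted plasma form, had 126266, 117273, 127157 and 139779 in young and 160256, 126480.0, 107416, 205904 and 181136 in old kidneys, the highest level of the 43 genes. The old libraries spread on both sides of the young ones, and Gpx3 was not called (log2 difference 0.26 ± 0.20 SE, adjusted p = 0.28, limma). It was called higher with the trend on transcript length removed (0.55, adjusted p = 0.0182, limma).

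Gpx4 shares sequence with processed copies, which bears on how its reads were placed. In GENCODE vM21, 88.9% of the 50-base words in the last 500 bases of its transcripts also occur in another gene, most often in the pseudogene Gpx4-ps2. Gpx4-ps2 itself had 27.0, 25.3, 37.3 and 35.3 normalized counts in young and 44.8, 31.7, 25.4, 37.3 and 58.3 in old kidneys, and was not called (log2 difference 0.29 ± 0.24 SE, adjusted p = 0.312, limma). With the counts of both summed, an alternative chosen after seeing the data, the log2 difference was -3.01 ± 0.14 SE (adjusted p = 4.99e-12, limma). In old kidneys the copy held 39.5 ± 12.7 (SD, n = 5) normalized counts and Gpx4 itself 27.1 ± 3.88, so the old Gpx4 mean lay within the range of its copy.

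Both superoxide dismutases inside cells were lower in old kidneys, the mitochondrial one by more. Sod2, the manganese enzyme of the mitochondrial matrix, had 2493, 2506, 2692 and 2534 normalized counts in young and 661, 1039, 757, 690.3 and 552 in old libraries. The groups were far apart, with old replicate 2 nearest to the young ones, and the mean was 3.46-fold lower (log2 difference -1.82 ± 0.13 SE, adjusted p = 1.55e-09, limma). Sod1, the copper and zinc enzyme of the cytosol, went from 7825 ± 356 to 5431 ± 378 (log2 difference -0.53 ± 0.09 SE, adjusted p = 8.19e-05, limma). Sod3, the extracellular enzyme, and Cat, the catalase of peroxisomes, were not called (log2 differences -0.22 ± 0.11 and -0.18 ± 0.14 SE), though Sod3 was called lower without old replicate 2 (-0.29, adjusted p = 0.0221). Within libraries the log2 ratio of Sod2 to Sod1 was -1.72 to -1.58 in young and -3.36 to -2.38 in old kidneys. Of 6 genes whose proteins work mainly in mitochondria, a selection made after the values were seen, Prdx3, Sod2, Glrx5 and Msrb2 were lower and Txn2 and Txnrd2 were not called, where 30.5% of all genes tested were lower.

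Glutathione synthesis showed a rise in 1 subunit of its first enzyme. Gclm, the modifier subunit of glutamate-cysteine ligase, had 1183, 1286, 1261 and 1194 normalized counts in young and 2469, 2113, 1784, 2699.5 and 2777 in old kidneys. All old libraries were above all young ones, and Gclm rose 1.92-fold (log2 difference 0.93 ± 0.12 SE, adjusted p = 1.58e-06, limma). Gclc, the catalytic subunit, had 547 to 935 in young and 692 to 954 in old kidneys and was not called (log2 difference 0.04 ± 0.14 SE). The ratio of the subunits did not quite part the groups, with log2 values of 0.34 to 1.20 in young and 1.19 to 1.83 in old libraries. The next steps fell: Gss, glutathione synthetase, by 0.50 and Gsr, which regenerates reduced glutathione, by 0.71 on the log2 scale (SE 0.10 for each). Ggt1, the brush border enzyme that opens the breakdown of filtered glutathione, was not called (4099 ± 243 in young, 3545 ± 415 in old, adjusted p = 0.0713, limma), but was called lower when scaled to the table total (adjusted p = 0.0137) or without old replicate 5 (0.0344).

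Heme oxygenase 1 rose from a low level. Hmox1, the inducible enzyme that breaks down heme, had 27.8, 33.0, 46.1 and 33.5 normalized counts in young and 66.0, 50.3, 62.9, 92.3 and 119.9 in old kidneys. The groups came close (46.1 against 50.3) without overlapping, and Hmox1 rose 2.23-fold (log2 difference 1.09 ± 0.23 SE, adjusted p = 0.000521, limma). Hmox2, the constitutive form, fell by 0.40 on the log2 scale and Blvrb, a biliverdin and flavin reductase, by 0.84 (SE 0.11 and 0.15). The Hmox2 call was lost with the trend on transcript length removed (log2 difference -0.13, adjusted p = 0.339) and without mitochondrial genes (-0.26, adjusted p = 0.0634). Within libraries the log2 ratio of Hmox1 to Hmox2 was -3.42 to -2.62 in young and -2.35 to -0.92 in old kidneys. Nqo1, the quinone reductase most used as a readout of NRF2, went the other way from Gclm and Txnrd1 in its mean, 100.4 ± 6.06 in young and 78.7 ± 17.8 in old kidneys, and was not called (adjusted p = 0.0564, limma). It was called lower when old replicate 3, its highest old library, was left out (log2 difference -0.49, adjusted p = 0.00969) and when scaled to the table total (-0.42, adjusted p = 0.0454). Nqo2, its paralog, had 81.8 ± 6.31 and 81.4 ± 24.0 and was not called.

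Of the 4 genes for repair of oxidized methionine and selenium transport, 3 were lower in old kidneys, where 30.5% of all genes tested were. Selenop, the selenium carrier of plasma and itself rich in selenocysteine, had 5817, 5568, 5168 and 4291 normalized counts in young and 1537, 1833, 1769.7, 1408 and 1454 in old libraries. The groups lay far apart and the mean was 3.26-fold lower (log2 difference -1.70 ± 0.11 SE, adjusted p = 3.1e-10, limma). Msra, the reductase of the S form of methionine sulfoxide, went from 1201 ± 73.3 to 469 ± 95.7 and Msrb2, a mitochondrial reductase of the R form, from 143 ± 12.4 to 64.0 ± 26.0 (log2 differences -1.38 ± 0.12 and -1.24 ± 0.22 SE). Msrb1, the selenoprotein that does this in the cytosol and nucleus, was not called (log2 difference -0.09 ± 0.13 SE). Of the 7 selenoproteins among the 43 genes, Gpx4 and Selenop were lower, Txnrd1 was higher, and Gpx1, Gpx3, Txnrd2 and Msrb1 were not called. For comparison, 30.5% of all genes tested were lower and 29.2% higher.

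The metal storage genes held the second largest fall. Ftl1, the ferritin light chain, had 6360.0, 6043, 5797 and 4459 normalized counts in young and 611, 1274, 697, 555 and 371 in old kidneys. Old replicate 2 was the highest of the old libraries and still below all young ones, and the mean was 8.07-fold lower (log2 difference -3.12 ± 0.22 SE, adjusted p = 1.36e-09, limma). Fth1, the heavy chain with the iron-oxidizing center, had 28508, 26527, 25581 and 25548 in young and 16153, 18969, 14869, 12344 and 10264 in old kidneys. It fell 1.83-fold without overlap (log2 difference -0.90 ± 0.15 SE, adjusted p = 3.81e-05, limma), and the log2 ratio of the light to the heavy chain fell from -2.24 ± 0.19 to -4.46 ± 0.35 within libraries. Ferritin shells are built from both chains. Mt1 and Mt2, the metallothioneins, moved little: Mt1 was not called (858 ± 117 in young, 814 ± 61.1 in old) and Mt2 fell by 0.32 on the log2 scale with overlapping groups (adjusted p = 0.0461, limma). The Mt2 call was lost in 6 of the 9 fits that left out a library, with adjusted p of 0.0541 to 0.187, and without mitochondrial genes (log2 difference -0.17, adjusted p = 0.245). With the trend on transcript length removed, the Mt2 difference turned to 0.046 (adjusted p = 0.785). In that fit Mt1 was called higher (log2 difference 0.31, adjusted p = 0.0125, limma).

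Ftl1 too has many copies in the genome. In its last 500 bases, 80.9% of 50-base words also occur in another gene, 15 genes in all and most often the pseudogene Ftl1-ps1. Ftl1-ps1 had 53.9 to 83.5 normalized counts in young and 61.3 to 87.0 in old kidneys and was not called (log2 difference 0.16 ± 0.17 SE, adjusted p = 0.442, limma), and with both summed the Ftl1 difference was -2.96 ± 0.20 SE (adjusted p = 6.01e-10, limma). Among the other genes such sharing was found for Fth1 (12.9%), Sod1 (12.4%) and Sod2 (5.10%), and for the remaining 38 it was 0. Each sum adds only the named pseudogene and only reads that were counted, so it cannot show how reads were placed. How much the placing of reads among copies adds to the Gpx4 and Ftl1 differences was not tested.

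**Figure D3:**
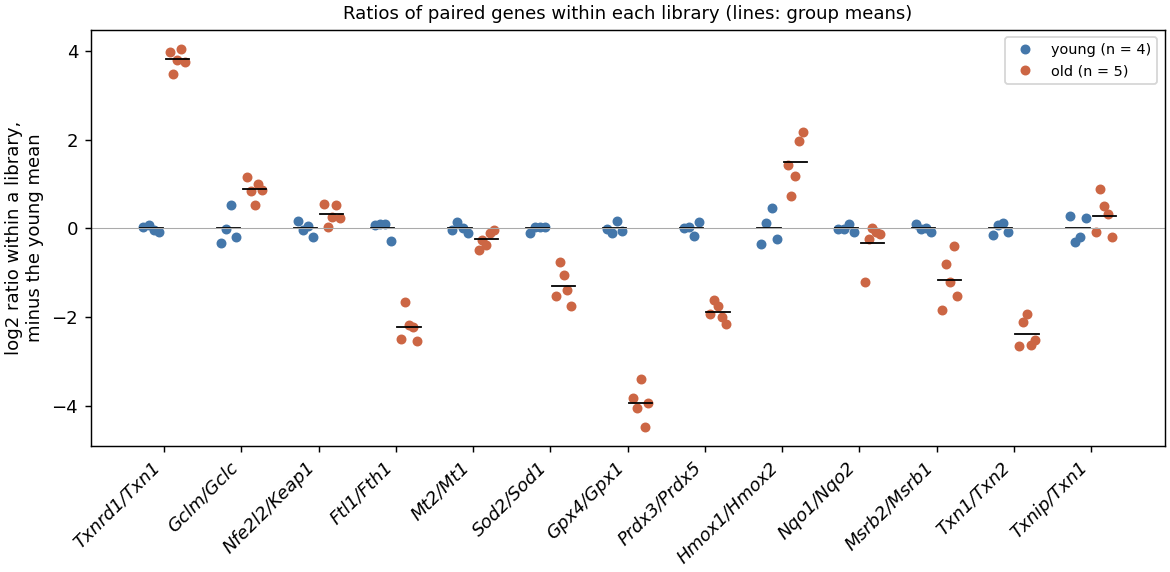
Log2 ratio of the normalized counts of 2 genes within each library, minus the mean of the young libraries (y axis), for 13 pairs of related genes; blue points are the 4 young and orange points the 5 old libraries, and lines are group means. The pairs were chosen after the values were seen and carry no test. Of the 13 pairs, 8 do not overlap between the groups, where 49% of all single genes tested do not overlap. No such share was taken over pairs of other genes. The mean differences run from Gpx4/Gpx1 at -3.94 to Txnrd1/Txn1 at 3.81.

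Genes that feed or surround these systems changed in both directions, more of them downward. Of 103 listed, 94 were tested and 67 called (71.3%), 25 higher (26.6%) and 42 lower (44.7%), beside 59.7% called, 29.2% higher and 30.5% lower of all genes tested. NADPH, which recharges glutathione and thioredoxin, is supplied by 9 of them, of which 5 fell and 3 rose: Idh1, cytosolic isocitrate dehydrogenase, went from 1976 ± 48.9 to 681 ± 217 (log2 difference -1.59 ± 0.16 SE, adjusted p = 8.81e-08, limma) and Tkt, transketolase, from 377 ± 83.9 to 669 ± 151 (log2 difference 0.82 ± 0.16 SE, adjusted p = 0.000228, limma). Among 20 other glutathione and thiol enzymes, 9 fell (45%) and 5 rose (25%). Txndc17, a thioredoxin-like protein, fell by 1.71 on the log2 scale, and Glrx2, the mitochondrial glutaredoxin, rose by 0.55.

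Of 20 other selenoproteins and genes of selenoprotein synthesis, 11 fell (55%) and 4 rose (20%), where 30.5% of all genes tested were lower and 29.2% higher. Selenof, a selenoprotein of the endoplasmic reticulum, went from 1301 ± 134 to 107 ± 14.8, 12.2-fold lower in old (log2 difference -3.60 ± 0.12 SE, adjusted p = 4.08e-14, limma), while Lrp2, megalin, which takes up filtered selenoprotein P among many proteins, rose by 0.95 on the log2 scale. Of 21 metal transport and sensing genes, 11 fell (52.4%) and 4 rose (19.0%), among them Iscu, the scaffold for iron-sulfur clusters, from 796 ± 70.5 to 187 ± 33.6, and Trf, transferrin, from 44.1 ± 5.50 to 111 ± 30.3 (log2 differences -2.10 ± 0.12 and 1.27 ± 0.19 SE). Of 13 enzymes that make superoxide or hydrogen peroxide, 4 were higher (30.8%) and 3 lower (23.1%), near the shares of the table. Cybb, the NADPH oxidase subunit of phagocytes, went from 42.2 ± 5.53 to 90.8 ± 16.4 (log2 difference 1.08 ± 0.18 SE).

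The direction of change in the whole table went with transcript length, and the defense genes are short. Their median longest transcript was 2167 bases, beside 3307 for all genes with a length. In the shortest of 4 equal length bins (up to 2135 bases) 43.9% of all genes were lower in old, and in the longest bin 15.8%. Of the 43 genes, 21 were in the shortest bin, 12 of them (57.1%) lower in old, and 12 in the next bin, 8 of them (66.7%) lower, where 35.3% of all genes were. If all genes had the lengths of the 43, weighting the 4 bins by the number of these genes in each, 37.0% would be lower and 23.1% higher, beside the 55.8% and 14.0% found. Across 12455 genes the Spearman correlation of the log2 difference with length was 0.28, a description over genes that share libraries. With the trend on length removed, 28 of the 43 genes were called (65.1%), 20 lower (46.5%) and 8 higher, beside 57.6% called and 28.7% lower of all genes in that fit. Of the 30 calls, 26 were kept, and Gpx3 and Mt1 were then called higher. The part of length in these differences was not tested.

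**Figure D4:**
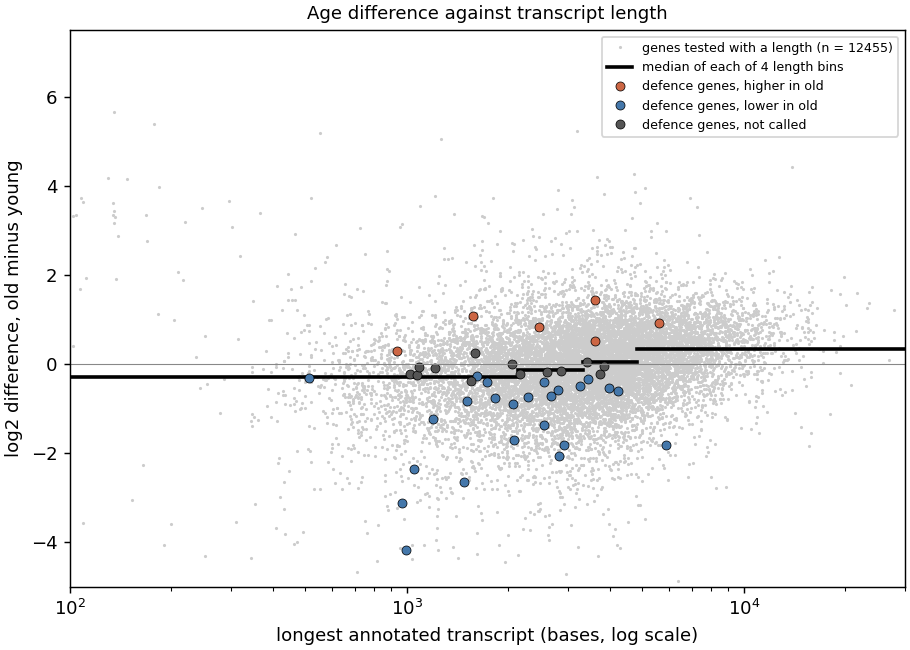
Log2 difference, old minus young (y axis), against the length of the longest annotated transcript in bases (x axis, log scale) for 12455 genes (gray), with the median of each of 4 length bins as a black line and the 43 defense genes as large points colored by their call; 40 genes lie outside the axes. The medians climb from -0.30 in the shortest to 0.35 in the longest bin, and the most fallen genes (Gpx4, Ftl1, Prdx3, Txn1) lie among the short ones.

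Level also bears on how many genes pass a test. Among the 5655 genes with a mean of at least 100 normalized counts, 72.5% were called and 36.4% were lower, beside 75.0% called and 61.1% lower of the 36 defense genes at that level. The total share called was thus near that of all genes above this floor, and the share that was lower was above theirs. A floor does not match the genes for level, and the part of level was not tested.

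Some features of the libraries moved with age. Transcripts of the mitochondrial genome took 27.0 to 29.7% of the table in young and 35.8 to 38.1% in old kidneys, and mitochondrial ribosomal RNA 2.98 to 4.46% against 21.8 to 25.4%. The rise thus lay in ribosomal RNA, and the other mitochondrial transcripts together took a smaller share in old than in young libraries. When the table was rescaled without mitochondrial genes, the median of all genes rose by 0.14 on the log2 scale and 26 of the 43 genes were called (60.5%), 20 lower (46.5%) and 6 higher. The share called was the same as over all genes under that scaling (60.5%), of which 25.1% were lower. Proximal tubule markers were plentiful in all libraries (summed 45971 to 48848 normalized counts in young, 46633 to 61490 in old, 4 of 8 higher and 2 lower), which is the cell type the tissue label calls for. Summed markers of the thick ascending limb (8696 to 9427 against 11059 to 15504, 2 of 4 higher), the distal convoluted tubule (3231 to 4071 against 4774 to 5885, 2 of 4 higher and 2 lower) and endothelium (1014 to 1167 against 1425 to 1675, 3 of 5 higher) were higher in old without overlap. Those of intercalated cells (649 to 725 against 335 to 467, 4 of 4 lower), podocytes (507 to 550.0 against 386 to 443, 1 of 4 lower and 2 higher) and stroma (1501 to 1880 against 778 to 1345, 4 of 5 lower) were lower. Lymphoid and plasma cell markers rose from 253 to 717 up to 876 to 2504 (3 of 3 tested higher; Cd3e was at 0 in some libraries of both groups, as was the adipocyte marker Plin1). Sums of principal cell (3 of 5 lower), macrophage (2 of 7 higher, 1 lower), erythroid (2 of 5 higher, 1 lower) and adipocyte (1 of 4 lower) markers overlapped between the groups. The part of cell composition in the differences of the 43 genes was not tested.

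For 16 of the 30 called genes, old replicate 2 had the value closest to the young range. Without it, 31 of the 43 genes were called (72.1%), 25 lower (58.1%) and 6 higher, beside 60.2% called and 30.7% lower of all genes tested.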

How the data were processed

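The authors sequenced QuantSeq 3′ libraries of kidney RNA, aligned reads to GRCm39 with TopHat2 2.0.10 (Bowtie 1.0.0, SAMtools 0.1.19), counted them per gene and strand with HTSeq 0.6.1 after quality checks with FastQC 0.11.7, and deposited 1 table of 9 libraries. Its values are a signal: per the file headers, the authors' normalized counts, that is reads divided by DESeq size factors. All values (100%, tolerance 0.01) were whole multiples of 1 read, so whole reads were recovered; intervals and floors cover counting error only. The files hold 13081 genes.

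Old was compared with young by limma 3.58.1 (R 4.3.3, trended variance) on log2(normalized count + 1), for genes with at least 10 normalized counts in at least 4 libraries, two-sided, with Benjamini-Hochberg adjustment over 12667 genes and a threshold of 0.05. Fold changes understate low genes on this scale. Alternatives were other pseudocounts, filters and scalings, a length trend removed, edgeR 4.0.16 and, likewise on reads, DESeq2 1.42.0, and each library left out. In data simulated for this comparison (12565 genes in the step), 98% of 100 genes changed 1 unit on the log2 scale and 100% of 100 genes changed 2 units were recovered. The labels count 4 and 5 mice, so each library was taken as 1 animal.

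The 43 genes, the related lists (NADPH supply, NRF2 partners, other thiol enzymes, selenoproteins, metal transport, producers of superoxide or hydrogen peroxide) and the cell type markers were chosen with earlier results of these data known. Full values are given, per role, for the called gene with the largest difference among those with a mean of at least 50 and groups that do not overlap, for every gene called higher, for the 3 with the highest mean, and for Nfe2l2 and Keap1; per related list, the called genes with the largest rise and fall at a mean of at least 50 are named, except 1 that is not reported here. Lengths and shared sequence came from GENCODE vM21 and promoters from RefSeq (both GRCm38), matched by symbol; 98.3% of genes had a length.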

Additional observations from a re-analysis of the deposited data

Results flagged for a closer look

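In 6 of the 86 groups of libraries (43 genes, young and old) 1 library lay apart from the others of its group on the log2 scale, with a gap to its nearest neighbor divided by the group's whole range above Dixon's critical value; chance gives about 1 in 20 groups, here 4.3. In old kidneys this was Gpx4 in replicate 4, at 20.5 normalized counts below the 27.3 to 30.4 of the others (gap ratio 0.728). In young kidneys it was Nqo1 in replicate 2 (91.3 against 103 to 104, 0.945), Blvrb in replicate 1 (149 against 111 to 115, 0.898), Nfe2l2 in replicate 4 (304 against 366 to 376, 0.879), Msra in replicate 3 (1092 against 1224 to 1252, 0.833) and Mt1 in replicate 4 (685 against 894 to 938, 0.849). Young replicate 4 was the low library for both Nfe2l2 and Mt1.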

How the results depend on the processing

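The number of the 43 genes called was 26 to 33 under all alternatives (main 30), with 26 to 31 when 1 library was left out. Of 855 refits of single genes, 806 kept their direction and side of the threshold, and 26 genes did so throughout. Genes called in the whole table fell from 7568 to 4101 when a mean of at least 100 was required, since only 5655 genes were then tested. Removing the length trend gave log2 differences of 0.020 for Prdx2, 0.18 for Prdx4, 0.14 for Gpx1, 0.015 for Ggt1, 0.27 for Msrb1, 0.31 for Mt1 (adjusted p = 0.0125) and 0.046 for Mt2. Leaving out mitochondrial genes gave 0.091 for Nqo2, 0.056 for Msrb1 and 0.074 for Mt1, and ended the calls of Prdx2, Glrx3, Hmox2 and Mt2; scaling to the table total gave -0.046 for Txn2 and -0.013 for Gclc, and called Gpx1, Ggt1 and Nqo1 lower. With 1 library left out, the difference ranged from -0.38 to 0.011 for Prdx4, -0.074 to 0.10 for Txn2, -0.27 to 0.0074 for Txnrd2, -0.13 to 0.13 for Gclc and -0.20 to 0.064 for Nqo2. The cause was not tested. Hmox2 and Glrx3 also lost their calls without the length trend (adjusted p = 0.339 and 0.0534), as did Prdx2 and Mt2 (0.862 and 0.785). No paired analysis was possible because the columns carry no replicate numbers shared between ages. Depth limits Gpx4 in old kidneys and Hmox1 in young ones, which rest on few reads a library.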
